A study of Mus musculus with 4 samples.

Results

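The surface proteins and secreted matrix proteins by which fibroblasts and preadipocytes of mouse fat are told apart were followed in adipocytes isolated from perigonadal white fat. The set holds 10 genes, taken by symbol from the 55487 genes of the deposited table: Dpp4, Pi16 and Cd55 for early progenitors, and Pdgfra, Pdgfrb, Cd34, Ly6a, F3, Clec3b and Mfap5 for committed preadipocytes and fibroblasts. RNA was sequenced from 2 CKO libraries and 2 control libraries labelled WT, all of total adipocytes of the perigonadal depot of male littermates on a standard diet. The labels name no age, strain, allele or Cre driver and leave CKO unexplained, and the series title names BLIMP1, the repressor encoded by Prdm1, and its work in macrophages. The labels do not say whether each library is 1 animal or a pool, and the p-values here reflect the spread among libraries, which may be technical.

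White fat holds stromal progenitors beside its adipocytes. Early progenitors with DPP4 and PI16 lie in the connective tissue that wraps the lobules and vessels, and give rise to committed preadipocytes among the adipocytes, while a further population with CD142, the product of F3, restrains adipogenesis in mouse fat. PDGF receptor alpha is the receptor by which fibroblasts are most often recognised. PDGF receptor beta is shared with pericytes, and CD34 and Sca-1, the product of Ly6a, are shared with endothelium. Isolated adipocytes float, and stromal cells are normally left behind in the pellet. Levels of stromal transcripts in a floating preparation thus need not reflect the stromal cells of the fat. In bulk RNA, fewer cells of a type and less RNA per cell cannot be told apart.

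Libraries held 24152081 to 26742547 reads assigned to genes. The adipocyte hormone gene Adipoq had 71437 and 43436 reads in CKO and 44425 and 7561 in WT, and the macrophage gene Adgre1 had 1384 and 3106 reads in CKO and 8071 and 31880 in WT, each for replicates 1 and 2. WT replicate 2 stood apart, with a score of -118 on a first principal component that held 77.7% of the variance, against -4.18 to 84.4 in the other libraries, so the change of each marker is also given without it. Scaled reads are reads divided by a size factor for the library, and log2 changes are CKO minus WT means of log2(scaled reads + 1), tested in limma with p adjusted over all genes tested. Prdm1 had 152 and 386 reads in CKO and 514 and 1135 in WT (log2 change -1.79, SE 0.59, limma adjusted p 0.459). The part of the gene that a CKO allele would lack is not stated in the labels, so this level does not check the labels.

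The 10 markers were divided in direction. All 10 had enough reads to be tested, 5 were higher in CKO and 5 were lower (51.1% and 48.9% among all genes tested), and the median log2 change was 0.070, against 0.015 over the 16871 genes tested. None passed an adjusted p of 0.05 in limma (0.459 to 0.921), where 0% of all genes tested passed in either direction. At an unadjusted p under 0.05, 1 marker was lower, Mfap5, against 7.26% of all genes, and 0 were higher, against 3.35%. In scaled reads, F3 and Pdgfrb, 2 markers, had both CKO values above both WT values, against 23.9% of all genes. Mfap5, Pdgfra and Clec3b, 3 markers, had both below, against 26.8%. These shares are near those of all genes and are no result about the markers as a set. Without WT replicate 2, 3 of 10 were higher.

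**Figure D1:**
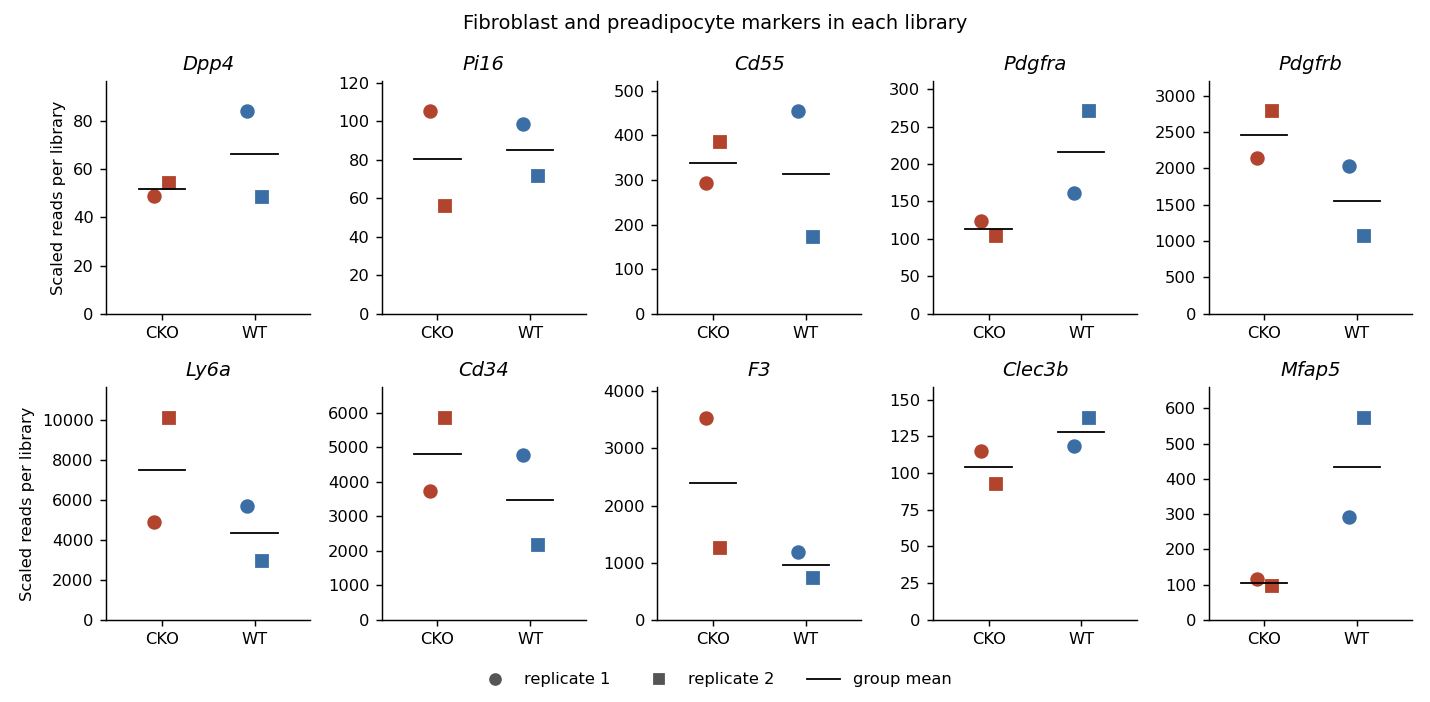
Reads of each marker divided by the library's size factor (y axis, linear from 0, a scale of its own in each panel), for the CKO libraries on the left and the WT libraries on the right; circles are replicate 1, squares replicate 2, and bars group means. Mfap5 and Pdgfra are lower in both CKO libraries and highest in WT replicate 2, while 6 of the 10 genes are lowest in WT replicate 2.

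Levels spanned a wide range per length. As RPKM, reads scaled to exon length and to the library total, averaged over the 4 libraries, Ly6a had 197, F3 26.3, Cd34 22.6, Pdgfrb 14.6, Clec3b 4.56, Mfap5 2.86, Cd55 2.67, Pdgfra 0.634, Pi16 0.511 and Dpp4 0.368. Only some steps in this order exceeded the spread over libraries. The lowest library for Ly6a, at 89.4, lay above the highest for F3, at 55.4. F3, Cd34 and Pdgfrb overlapped one another, and the lowest of their values (7.07, Pdgfrb) lay above the highest of Clec3b, Mfap5 and Cd55 (5.82, Mfap5). Mfap5 overlapped both of the others, while the lowest value of Clec3b, at 3.84, lay just above the highest of Cd55, at 3.73. The lowest value of those 3 genes was 1.09, for Mfap5, and the highest of Pdgfra, Pi16 and Dpp4 was 0.981, for Pdgfra.

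Set among all genes tested, Ly6a lay at percentile 98.8 of this level, F3 at 87.6, Cd34 at 85.5 and Pdgfrb at 78.5. Clec3b was at percentile 53.4, Mfap5 at 43.6 and Cd55 at 42.3. Pdgfra was at percentile 19.5, Pi16 at 16.8 and Dpp4 at 12.7. The fibroblast receptor gene and the early progenitor genes Pi16 and Dpp4 were thus the lowest of the set, with Cd55 above them, and the 4 highest are genes that endothelium, pericytes or other cells of fat also make. These levels come from the same total of reads for each library and depend on the annotated exon length.

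**Figure D2:**
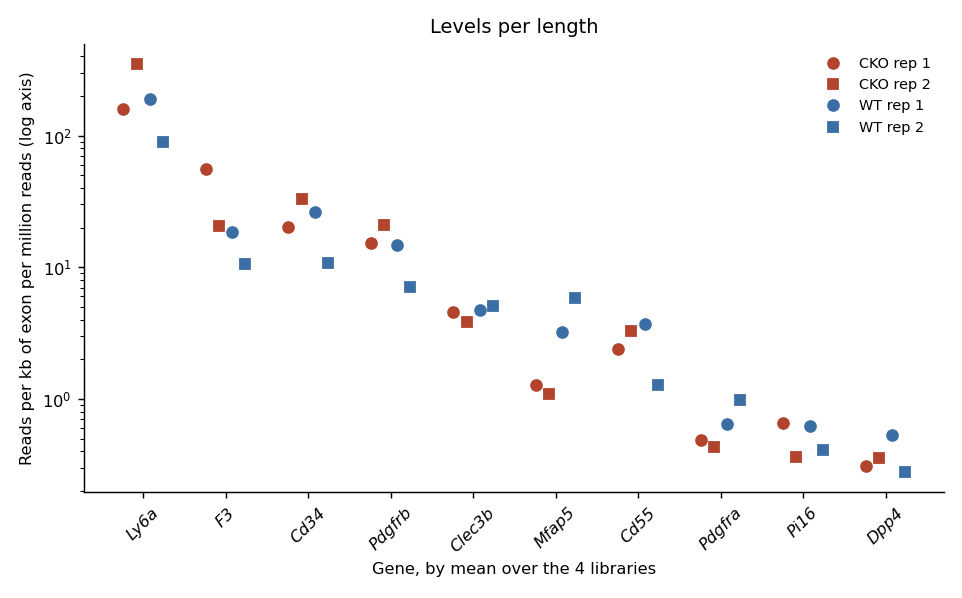
Level of each marker in RPKM (y axis, log scale), ordered by the mean over the 4 libraries; red marks CKO and blue WT, circles replicate 1 and squares replicate 2. Ly6a lies above all others in each library and Pdgfra, Pi16 and Dpp4 lie below 1.

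Dpp4, Pi16 and Cd55, the genes taken here for early progenitors, did not separate the groups. Dpp4, the serine peptidase that trims incretins and chemokines, lies on chromosome 2 of GRCm38 (62330073 to 62412231, minus strand) and had 49 and 60 reads in CKO and 81 and 46 in WT. The CKO values lay between those of WT, and only WT replicate 1 was high. Its log2 change was -0.30 (SE 0.48, limma adjusted p 0.783), with a 95% interval of -1.54 to 0.94. It was -0.69 without WT replicate 2 and 0.093 without WT replicate 1. The exact Poisson interval of the 49 reads was 36.3 to 64.8 and that of the 81 reads 64.3 to 100.7, which cover counting error alone.

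Pi16, a secreted peptidase inhibitor-like protein that marks adventitial fibroblasts, had 105 and 62 reads in CKO and 95 and 68 in WT. Each group had 1 higher and 1 lower library, and the log2 change was -0.13 (SE 0.50, limma adjusted p 0.921). Leaving out WT replicate 2 gave -0.36, leaving out CKO replicate 2 gave 0.32 and leaving out WT replicate 1 gave 0.10. Cd55, which speeds the decay of complement convertases on the cell's own surface, had 292 and 425 reads in CKO and 437 and 163 in WT. WT replicates 1 and 2 were its highest and lowest libraries, with both CKO libraries between them. Its log2 change was 0.27 (SE 0.54, limma adjusted p 0.833), and -0.43 without WT replicate 2. Its paralogue Cd55b had 2 reads in CKO and 0 in WT.

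The intervals of these 3 genes leave room for changes in either direction, from -1.41 to 1.16 for Pi16 and from -1.12 to 1.65 for Cd55. None of the 3 peaked in WT replicate 2, which was the highest library for only 3 of the 10 markers. Summed over the 3 genes, scaled reads were 446.8 and 495.5 in CKO and 636.6 and 291.2 in WT.

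The 2 PDGF receptors had log2 changes of opposite sign. Pdgfra (chromosome 5, 75152292 to 75198215, plus strand) had 123 and 115 reads in CKO and 155 and 257 in WT. Scaled to library size this was 114 ± 13.5 in CKO and 216 ± 77.3 in WT (SD, n = 2 each), with no overlap between the groups. The log2 change was -0.87 (SE 0.41), with a 95% interval of -1.93 to 0.19, and did not pass (limma adjusted p 0.459). Without WT replicate 2 it was -0.50.

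Pdgfrb, the receptor that recruits pericytes to vessels, had 2134 and 3076 reads in CKO and 1960 and 1012 in WT. The groups did not overlap, but CKO replicate 1 exceeded WT replicate 1 by a narrow margin, with 2138 against 2035 scaled reads. Its log2 change was 0.73 (SE 0.39, limma adjusted p 0.477), and 0.26 without WT replicate 2. Of 10 smooth muscle and pericyte markers, none at 0 reads, 7 were likewise higher in CKO (median 0.98, and 0.36 without WT replicate 2) and 0 passed the adjusted threshold. Their summed scaled reads were 15399.7 to 22021.7 in CKO and 6448.3 to 17175.5 in WT. Per 1000 reads of these markers, Pdgfrb had 139 and 127 reads in CKO and 119 and 165 in WT. This ratio overlapped between the groups, but it depends on the genes summed. Acta2, 1 of these markers, had 870.57 and 3382.25 scaled reads in CKO and 5739.36 and 1972.45 in WT. Its direction was opposite to that of most of the list (log2 change -0.97), and its weight in the sum was uneven between libraries. The part of pericyte transcripts in the Pdgfrb level was not tested.

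The ligands of these receptors were measured as well. Of 4 PDGF genes, 3 had a positive log2 change and 0 passed. Pdgfb, which endothelium releases to pericytes and which binds both receptors, had 1727 and 2956 reads in CKO and 1171 and 1318 in WT (log2 change 0.73, SE 0.30, limma adjusted p 0.459). Pdgfa, a ligand of the alpha receptor, had a log2 change of -0.41, Pdgfd, a ligand of the beta receptor, one of 0.70, and Pdgfc one of 0.0057. Without WT replicate 2 only 1 of the 4 was positive.

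Ly6a and Cd34 followed the same order of libraries: CKO replicate 2, WT replicate 1, CKO replicate 1, WT replicate 2, from high to low. Ly6a, which encodes the GPI-anchored stem cell antigen Sca-1 (chromosome 15, 74994877 to 74998031, minus strand), had 4891 and 11204 reads in CKO and 5497 and 2815 in WT. The groups overlapped, with a log2 change of 0.78 (SE 0.52, limma adjusted p 0.528) and of 0.30 without WT replicate 2. Cd34, a sialomucin of progenitors and vessels (chromosome 1, 194938819 to 194961279, plus strand), had 3720 and 6476 reads in CKO and 4607 and 2056 in WT. Its log2 change was 0.54 (SE 0.48, limma adjusted p 0.623), and -0.033 without WT replicate 2.

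Endothelial markers moved with these genes. All 10 endothelial markers had a positive log2 change (median 1.16, and 0.45 without WT replicate 2), none was at 0 reads and 0 passed the adjusted threshold. Their summed scaled reads were 86381.5 and 130795.3 in CKO and 78835.9 and 27718.4 in WT, with the same highest and lowest library as Ly6a and Cd34. Per 1000 reads of these markers, Ly6a had 56.7 and 77.6 reads in CKO and 72.4 and 107 in WT, and Cd34 had 43.1 and 44.8 in CKO and 60.7 and 78.0 in WT. Relative to endothelial markers, both genes were thus highest in the library in which their own level was lowest. For Cd34 this ratio was lower in both CKO libraries than in both WT libraries, opposite in direction to its log2 change. For Ly6a the ratio overlapped between the groups. The part of endothelial transcripts in the levels of Ly6a and Cd34 was not tested.

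Genes of the same family as Ly6a can share reads with it. Its neighbour Ly6c1, a marker of capillary endothelium, had 8897 and 17454 reads in CKO and 9603 and 3690 in WT, the same order of libraries. Ly6e and Ly6d had other orders, with both CKO values above both WT values, against 23.9% of all genes tested. Ly6e had 16001 and 26065 reads in CKO and 13864 and 5258 in WT. Ly6c2, with at most 19 reads in a library, had a log2 change of -0.58. Of 8 neighbours in the Ly6 cluster, 4 had enough reads to be tested, 3 of these were higher in CKO and 0 passed (median 1.03, and 0.34 without WT replicate 2). How reads that fit several of these genes were assigned is not recorded in the labels.

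F3 had the largest positive log2 change of the set. It encodes tissue factor, the surface receptor for coagulation factor VII that starts clotting, and lies on chromosome 3 (121723537 to 121735048, plus strand). It had 3535 and 1386 reads in CKO and 1140 and 696 in WT, or 2398 ± 1616 scaled reads in CKO and 958 ± 320 in WT (SD, n = 2 each). CKO replicate 1 was high and the other CKO library lay close to WT replicate 1. The log2 change of 1.18 (SE 0.57, 95% interval -0.29 to 2.65) did not pass (limma adjusted p 0.460). Leaving out WT replicate 2 gave 0.83, and leaving out CKO replicate 1 gave 0.43.

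Adipocyte markers as a sum were also highest in CKO replicate 1 and lowest in WT replicate 2. Of 10, none at 0 reads, 9 had a positive log2 change and 0 passed (median 1.46, and 0.33 without WT replicate 2). Their summed scaled reads were 892434.4 and 379656.7 in CKO and 419476.6 and 88601.6 in WT. The adipokine gene Cfd weighed most in this sum, with 511570.8 and 161401.3 scaled reads in CKO and 131299.1 and 12947.1 in WT. The leptin gene Lep had the opposite direction, with 13439.2 and 21436.6 in CKO and 59964.7 and 26503.0 in WT, and Slc7a10, an amino acid transporter of white adipocytes, was highest in WT replicate 1. Per 1000 reads of these markers, F3 had 3.97 and 3.31 reads in CKO and 2.82 and 8.26 in WT, and the groups overlapped. The part of adipocyte transcripts in the F3 level was not tested.

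The bases before the start site are shown for F3, Pdgfra and Cd34, the genes of the set with the largest positive change, with the receptor that defines fibroblasts, and with a marker that endothelium shares. Each run gives the 250 bases before the RefSeq start site on GRCm38.p6, 5′ to 3′ on the gene's strand, and capitals mark matches to the motifs named after them; Pdgfra and Cd34 held none.
F3, chr3:121723287-121723536, plus strand: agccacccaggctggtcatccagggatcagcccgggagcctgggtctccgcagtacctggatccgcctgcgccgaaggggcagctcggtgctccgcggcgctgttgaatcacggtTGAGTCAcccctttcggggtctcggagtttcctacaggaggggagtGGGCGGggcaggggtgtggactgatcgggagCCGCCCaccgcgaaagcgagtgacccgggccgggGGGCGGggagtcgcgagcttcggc
Pdgfra, chr5:75152001-75152250, plus strand: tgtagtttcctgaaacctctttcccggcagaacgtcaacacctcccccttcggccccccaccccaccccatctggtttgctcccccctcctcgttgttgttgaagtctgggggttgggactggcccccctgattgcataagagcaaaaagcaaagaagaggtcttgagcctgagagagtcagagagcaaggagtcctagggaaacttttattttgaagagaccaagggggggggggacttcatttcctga
Cd34, chr1:194938571-194938820, plus strand: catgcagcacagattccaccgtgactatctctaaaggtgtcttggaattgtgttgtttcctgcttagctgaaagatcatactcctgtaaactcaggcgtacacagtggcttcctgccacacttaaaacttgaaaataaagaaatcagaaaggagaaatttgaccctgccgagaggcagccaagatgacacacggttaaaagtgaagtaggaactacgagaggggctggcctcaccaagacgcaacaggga
The motifs searched, on both strands, were TGACTCA for AP-1, GGGCGG for the GC box, TATAAA for the TATA box and GTGAAAG, a core of the BLIMP1 site. F3 held 1 AP-1 match, first base at -135 from the start site, and 3 GC boxes, at -89, -58 and -24. In the same window of 32851 promoters, 4.46% held the AP-1 letters, 32.7% the GC box, 12.4% the TATA box and 3.57% the BLIMP1 core. Of the 10 markers 6 had a RefSeq promoter entry, and among the other 3 of these, Cd55 held 2 GC boxes, Dpp4 1 TATA box at -227 and Pi16 no match. A match is a description of letters and says nothing of binding.

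The partners of tissue factor were measured from a list of 8 genes, of which 4 were higher and 4 lower in CKO and 0 passed. F7, the factor that binds tissue factor, had 62 and 846 reads in CKO and 2064 and 5142 in WT (log2 change -3.95, SE 1.25, limma adjusted p 0.459). F10, the factor that this complex cleaves, had 85 and 475 reads in CKO and 949 and 1677 in WT (log2 change -2.77). Both factors were lower in both CKO libraries, in the direction opposite to F3. Tfpi2, an inhibitor of serine proteases of clotting, had a log2 change of -1.77 and Thbd, which encodes the anticoagulant receptor thrombomodulin, one of 0.85.

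**Figure D3:**
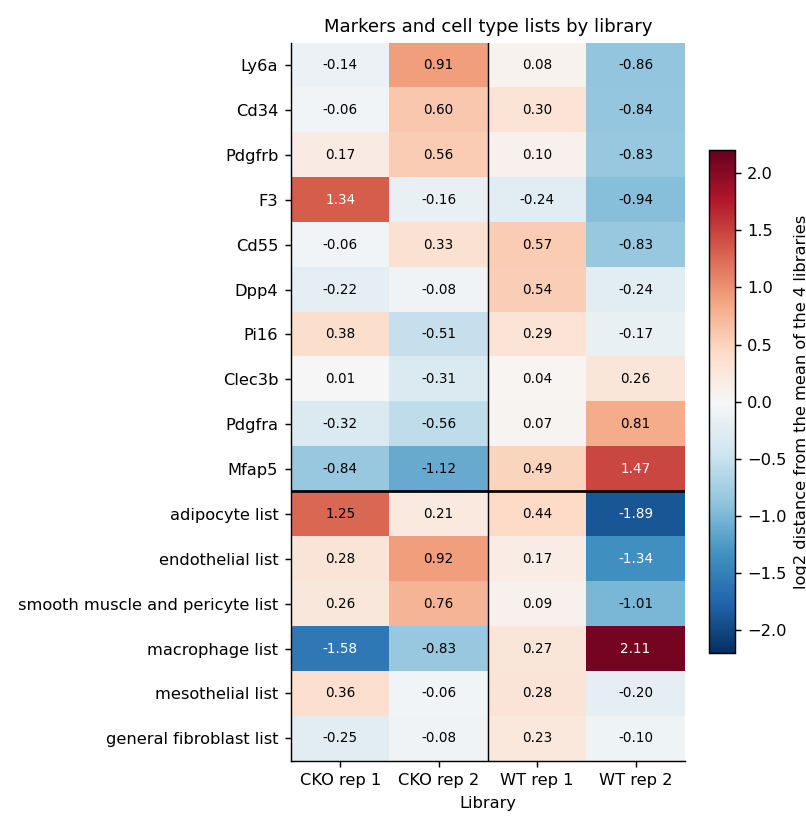
Log2 distance of each marker from its mean over the 4 libraries (upper rows, log2 of scaled reads + 1) and the median of the same distance over the genes of 6 lists (lower rows), with the CKO libraries left of the line and the WT libraries right of it. Ly6a, Cd34 and Pdgfrb are highest in CKO replicate 2, as are the endothelial and the smooth muscle and pericyte lists, while Mfap5, Pdgfra and Clec3b are highest in WT replicate 2, as is the macrophage list.

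Mfap5 had the largest difference of the 10 markers. It encodes a glycoprotein of the microfibrils that carry elastin and bind growth factors, is made by progenitors of the connective tissue around lobules, and lies on chromosome 6 (122505845 to 122529290, plus strand). It had 115 and 105 reads in CKO and 281 and 546 in WT, or 105 ± 14.2 scaled reads in CKO and 433 ± 199.6 in WT (SD, n = 2 each). Both CKO libraries were close to each other and lay below WT, with WT replicate 2 highest. The log2 change was -1.96 (SE 0.44), with a 95% interval of -3.10 to -0.82, and did not pass over all genes (limma adjusted p 0.459, unadjusted p 0.00705). It was -1.47 without WT replicate 2 and between -2.44 and -1.82 without each of the other libraries. Without WT replicate 1 alone its adjusted p was 0.0442, in a fit that assumes the lone WT library to vary like the CKO libraries and in which 837 genes were higher and 938 lower past the threshold.

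Clec3b encodes tetranectin, a plasminogen-binding lectin of the matrix, and was the steadiest of the set. It had 115 and 102 reads in CKO and 114 and 131 in WT, a range of 0.57 on the log2 scale. Scaled values were lower in both CKO libraries than in both WT libraries. Before scaling the groups overlapped, with 115 reads in CKO replicate 1 and 114 in WT replicate 1. The log2 change was -0.30 (SE 0.37, limma adjusted p 0.713). The 95% interval was -1.26 to 0.65, and the change was -0.20 without WT replicate 2.

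In scaled reads, Mfap5, Pdgfra and Clec3b shared 1 order of libraries. From high to low it was WT replicate 2, WT replicate 1, CKO replicate 1, CKO replicate 2. Macrophage markers were also highest in WT replicate 2 and then WT replicate 1. All 10 macrophage markers were lower in CKO (median -2.45, and -1.42 without WT replicate 2), with summed scaled reads of 19342.8 and 31255.4 in CKO and 71872.3 and 250767.5 in WT, none at 0 reads and 0 past the adjusted threshold. The part of these cells in the levels of the 3 markers was not tested.

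Mfap5 was set beside 13 other genes of microfibrils and elastic fibres, of which 12 could be tested. Of these 7 were higher and 5 lower in CKO, with a median of 0.31, -0.073 without WT replicate 2, and 0 passed. Mfap4, a microfibril protein of elastic fibres, had 20 and 23 reads in CKO and 45 and 49 in WT (log2 change -1.22, limma adjusted p 0.459). Ltbp1 and Ltbp4, which tether latent TGF-beta to microfibrils, had log2 changes of 1.19 and 1.29, and Mfap3 one of -0.41. Fbn1, the backbone of microfibrils, had 334 and 424 reads in CKO and 377 and 479 in WT (log2 change -0.31). Of the 13 genes 3 also stand in another list used here.

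**Figure D4:**
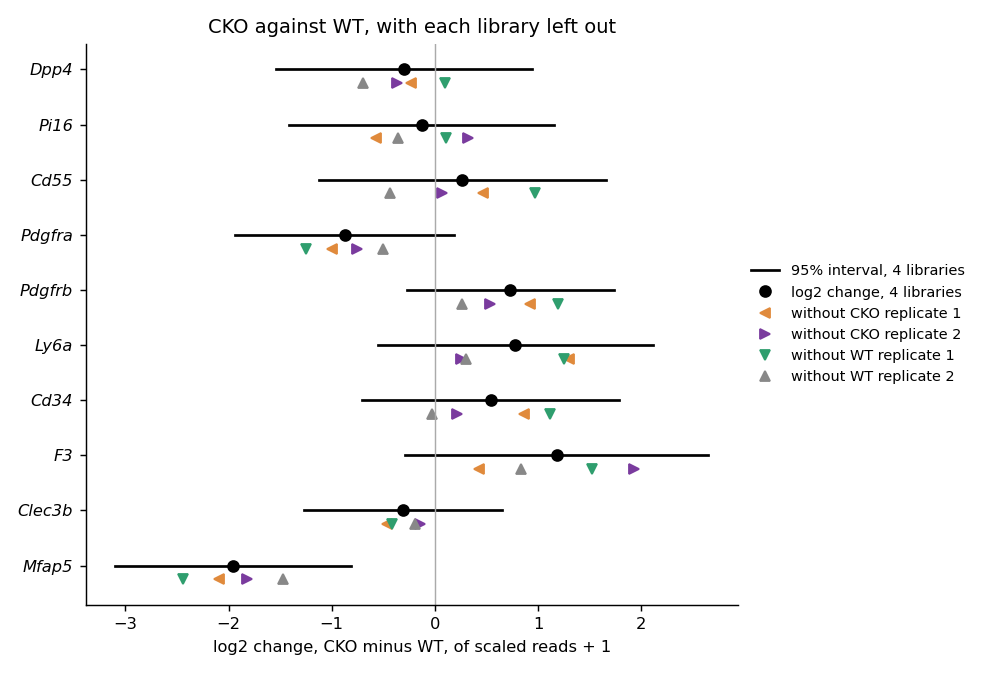
Log2 change of scaled reads + 1, CKO minus WT (x axis), for each marker with its 95% interval over 4 libraries (black), and the change with 1 library left out (coloured triangles). Only the interval of Mfap5 lies wholly on 1 side of 0, and Dpp4, Pi16, Cd55 and Cd34 cross 0 when 1 library is left out.

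The wider list of fibroblast genes was mixed. Of 30 general fibroblast genes tested, 11 were higher and 19 lower in CKO, with a median log2 change of -0.24, and 0 passed the adjusted threshold in limma. At an unadjusted p under 0.05, 5 were lower and 1 higher, against 7.26% and 3.35% of all genes tested. The groups did not overlap for 11 genes, 9 with CKO below WT and 2 with CKO above, against 26.8% and 23.9% of all genes tested. The median was -0.44 without WT replicate 2 and -0.0009 without WT replicate 1.

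Lum, the collagen-binding proteoglycan lumican, had 198 and 241 reads in CKO and 539 and 1036 in WT (log2 change -1.90, SE 0.40, limma adjusted p 0.459). Col1a1, the main chain of type I collagen, had 730 and 1447 reads in CKO and 2318 and 4222 in WT (log2 change -1.74). Serpinf1, a secreted anti-angiogenic protein made by preadipocytes and adipocytes, had a log2 change of -1.62. Postn, a matricellular protein of connective tissue, differed in the other direction, with 5427 and 6361 reads in CKO and 3093 and 2275 in WT (log2 change 1.01, SE 0.27, limma adjusted p 0.459). Dcn, the proteoglycan decorin and a gene of most fibroblasts, had a log2 change of 0.14, and Thy1, a fibroblast surface protein, had 7 and 13 reads in CKO and 14 and 20 in WT.

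Other genes of early progenitors were mixed in direction, with more of them lower in CKO. Of 24 listed genes 19 could be tested, 6 were higher and 13 lower in CKO, and 0 passed. The median log2 change was -0.15. With 1 library left out it ranged from -0.45, without WT replicate 1, to -0.0012, without CKO replicate 1. In the latter fit 9 were higher and 10 lower. Both CKO values lay below both WT values for 6 genes and above for 1, against 26.8% and 23.9% of all genes tested. Pcolce2, an enhancer of procollagen processing, had 73 and 189 reads in CKO and 1044 and 450 in WT (log2 change -2.67, SE 0.61, limma adjusted p 0.459). Col14a1, a collagen of fibril surfaces, had 59 and 54 reads in CKO and 118 and 156 in WT (log2 change -1.38), and Has1, a hyaluronan synthase, a log2 change of -1.99. Efhd1, a mitochondrial calcium-binding protein, was opposite, with 300 and 213 reads in CKO and 91 and 30 in WT (log2 change 2.12). The 5 genes not tested were Wnt2, Bmp7, Stmn4, Gap43 and Dact2, with at most 9 reads in any library.

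Committed preadipocyte genes other than the markers had 10 higher and 7 lower of 17 tested (median 0.15), and 0 passed. The median was 0.063 without WT replicate 2 and 0.78 without WT replicate 1. Ebf2, a transcription factor of preadipocytes, had 1547 and 931 reads in CKO and 535 and 150 in WT (log2 change 1.94, SE 0.68, limma adjusted p 0.459), and Cxcl14, a chemokine of stromal cells, had 41 and 86 reads in CKO and 161 and 437 in WT (log2 change -2.27). Hsd11b1, which regenerates active glucocorticoid, had a log2 change of 1.78, and the secreted WNT pathway protein gene Ccn5 one of -4.39. Dlk1, the inhibitor of adipogenesis that marks preadipocytes, had 1 and 5 reads in CKO and 4 and 0 in WT. Several of these genes, Pparg, Fabp4, Lpl and Cd36 among them, are made by adipocytes too.

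Of 9 genes that accompany F3 in CD142-positive stromal cells, 7 were higher and 2 lower in CKO (median 0.59), and 0 passed. For 5 of them both CKO values exceeded both WT values, and for 0 both were lower, against 23.9% and 26.8% of all genes tested. Meox2, a homeobox gene also of endothelium, had a log2 change of 1.40, Fmo2, a flavin monooxygenase, one of 0.95, Cygb, the globin cytoglobin, one of 0.71, and Rspo1, an amplifier of WNT signals, one of 0.59. The median was 0.37 without WT replicate 2 and 1.04 without WT replicate 1. In that last fit the WT group is replicate 2 alone, the library that stood apart.

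**Figure D5:**
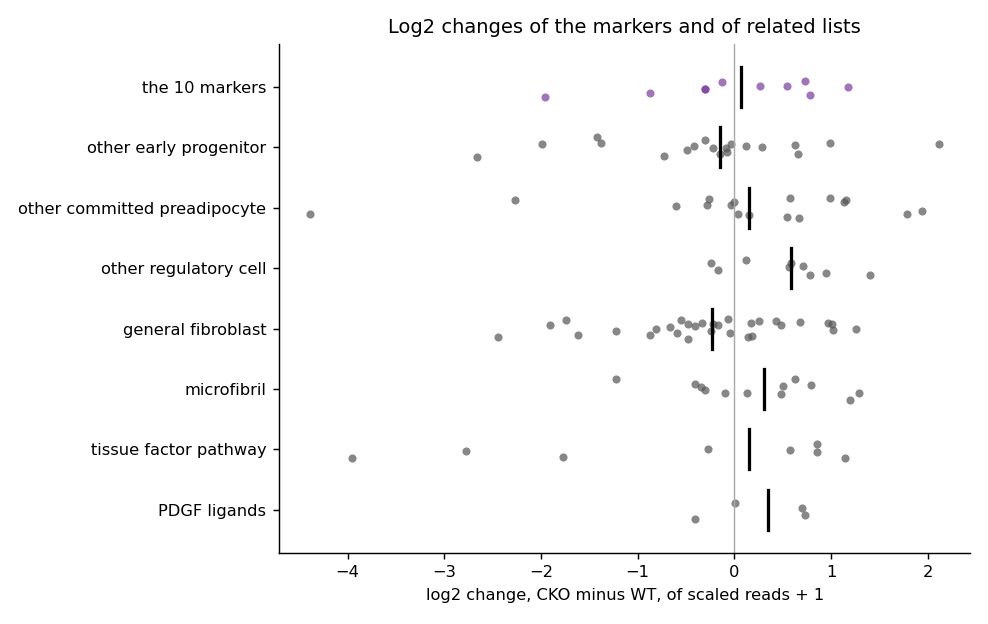
Log2 change of scaled reads + 1, CKO minus WT (x axis), of the 10 markers (purple) and of the tested genes of 7 related lists (grey), with black bars at the medians and vertical jitter within a row. Each list holds genes on both sides of 0, and the medians lie between -0.24 and 0.59.

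Relatives and regulators of the other markers gave no call. Of 12 genes of the DPP4 family, its substrates and partners, 9 were tested, 5 were higher and 4 lower in CKO, and 0 passed. Cxcl12, a chemokine that DPP4 cleaves, had a log2 change of 1.35, Gipr, the receptor of an incretin that DPP4 cleaves, one of 1.81, and Dpp7, a lysosomal peptidase, one of -1.31. Fap, the closest relative of Dpp4 and itself a fibroblast marker, had 63 and 126 reads in CKO and 91 and 80 in WT (log2 change -0.070). Of 5 complement regulators tested beside Cd55, 4 were higher and 1 lower in CKO and 0 passed, with Cd46, a membrane cofactor, at a log2 change of 0.91. Among 7 relatives of the markers in sequence or family, 5 were tested, 3 were higher and 2 lower and 0 passed, with Kit, a receptor kinase related to the PDGF receptors, at 1.20 and Csf1r, the macrophage growth factor receptor, at -2.18. Csf1r also stands among the macrophage markers.

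Mesothelial, T cell, Schwann cell and epididymal markers had few reads. The 10 mesothelial markers had summed scaled reads of 454.8 and 290.8 in CKO and 362.4 and 201.9 in WT, with 6 of 9 tested genes higher and 0 passing. T cells carry CD26, the product of Dpp4. Their 8 markers had 80.1 and 74.3 scaled reads in CKO and 185.9 and 86.2 in WT, with Cd8a at 0 in each library. Of 3 tested genes 2 were higher and Trac was lower. Trac had 9 and 28 reads in CKO and 134 and 41 in WT (log2 change -2.27, limma adjusted p 0.459). For 6 Schwann cell markers the sums were 86.2 and 71.6 in CKO and 100.7 and 69.4 in WT, with 1 of 2 tested genes higher. The 6 epididymal markers had at most 7.0 scaled reads in a library, with Lcn5 at 0 in each, and 0 could be tested. Erythroid markers had many more reads, and all 6 were higher in CKO (median 2.19, and 1.38 without WT replicate 2), with sums of 19027.2 and 30445.7 in CKO and 9156.8 and 3276.2 in WT.

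Likeness over 4 libraries was common and is given as a description. By root mean square distance between log2 values centred on their mean, the named genes nearest to Pdgfra were Tmem19 (0.026), Otulin (0.028) and Cic (0.045), and 31 named genes lay within 0.1. Nearest to Dpp4 were mt-Nd2 (0.037), Adam12 (0.042) and Pnldc1 (0.054), with 22 within 0.1. These genes share with the markers the 4 libraries and their scaling.

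Overlap with an annotated gene on the opposite strand could add to or lower the reads of 5 markers, Cd34, Cd55, Pdgfra, Pi16 and Dpp4. The labels do not say whether the counting used strand or how reads in shared exons were assigned, so neither effect was tested. Pdgfra also overlaps Mir7025 on its own strand, with 0 reads in each library. The gene opposite Cd34 had 15 and 33 reads in CKO and 24 and 18 in WT, and that opposite Cd55 had 3 and 4 in CKO and 6 and 2 in WT. Those opposite Pdgfra, Pi16 and Dpp4 had 0 reads in each library, too few to show a separate transcript at this depth.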

How the data were processed

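RNA was sequenced from 2 CKO and 2 WT libraries, and groups follow the genotype label. The submitters' processing notes name STAR 2.7.5c, FastQC and the build GRCm38.p6. The counter, its gene annotation and its use of strand were not given in the sources used here. As for units, the authors deposited log2 values, which the file name describes as normalised counts on that scale. Undoing the log2 and subtracting 1 gave whole numbers (within 0.01) in each library for 100% of genes, with totals of 24152081 to 26742547, so the values are log2(reads + 1) without scaling. Replicates were numbered in accession order, which pairs nothing.

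Whole reads were recovered by rounding and divided by size factors (0.951 to 1.10, medians of ratios to the geometric mean over 19847 genes). Log2(scaled reads + 1), on which changes of low genes are understated, was fitted on group in limma (version 3.58.1, R 4.3.3; lmFit and a trended eBayes, two-sided) for the 16871 genes whose deposited log2 values averaged 3 or more, and p-values were adjusted by Benjamini-Hochberg over all of them. The fit had 2 residual and 2.92 prior degrees of freedom, and 95% intervals use both. With 2 libraries against 2, an exact permutation test cannot go below 0.333, so none was run. The fit was tested on simulated reads with noise of equal size in each library. The data were less even, with a median within-group SD of log2 values of 0.393 in WT and 0.228 in CKO. The simulation thus does not show how the fit behaves on these libraries. Per-length levels use the union of exons in GENCODE M21 and total reads, and coordinates are 1-based. Of the identifiers 55094 (99.3%) matched. Poisson intervals are at 95% and cover counting error only.

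The markers and lists were chosen with earlier results of these data known, so lists are described by counts and medians without a test. Beside the 10 markers, the genes named are up to 4 of smallest unadjusted p in a list, defining markers of cell types, the 3 genes nearest to Pdgfra and to Dpp4, and Prdm1; Fbn1, Dcn, Thy1, Fap, Dlk1, Hsd11b1, Pdgfc and genes at or near 0 reads were named after their values were seen. A further 14 settings were tried, for the filter, variance prior, scaling, pseudocount, weights and each library left out. The labels name no batch.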

Additional observations from a re-analysis of the deposited data

How the results depend on the processing

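With 4 libraries and the reads behind Dpp4, Pi16, Pdgfra and Mfap5, only large and even differences could pass, and a value that did not pass is not shown to be equal between the groups. Under the 10 settings that keep all libraries, each marker kept its direction and stayed short of the adjusted threshold, except that Pi16 was at 0.0059 with the deposited values unscaled; Dpp4 had too few reads to enter at a minimum of 6. Unscaled values moved the median of all genes to 0.147, and no filter moved it to 0.117. Genes at an unadjusted p under 0.05 and higher in CKO numbered 988 without a filter, 333 at a minimum of 6 and 859 unscaled, against 566, and of the genes at that level 50.1% were higher when unscaled, against 31.6%.

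With each library left out in turn, genes past the adjusted threshold ranged from 0 to 837 higher and from 0 to 938 lower, and those at an unadjusted p under 0.05 from 122 to 2875 higher and from 212 to 2876 lower. Markers higher in CKO ranged from 3 to 7, markers lower from 3 to 7, and markers past the adjusted threshold from 0 to 1. The log2 change ranged from -0.69 to 0.093 for Dpp4, -0.57 to 0.32 for Pi16, -0.43 to 0.97 for Cd55, -0.033 to 1.11 for Cd34 and -2.44 to -1.47 for Mfap5; the cause was not tested. For single lists, 9 of 798 values moved by more than the spread or by over 1.5 times with all libraries kept, and 48 of 320 with a library left out. At a minimum of 6, no T cell or Schwann cell marker was left to give a median. No paired analysis was possible because the labels give each library a number of its own.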
